A study of Mus musculus with 8 samples.

Results

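The Schlafen genes of mouse chromosome 11 were followed in haematopoietic stem cells of mice with deletions of the histone demethylase genes Kdm4a, Kdm4b and Kdm4c. The members were 7 genes taken by symbol, namely Slfn1, Slfn2, Slfn3, Slfn4, Slfn5, Slfn8 and Slfn9, and all 7 were among the 24222 gene symbols of the count tables. The cluster was selected on the measured level of Slfn5, which was higher in the knockout in these libraries. The knockout against wild-type values of Slfn5 are therefore a description, with no test. The samples were 4 triple knockout (KO) mice carrying deletions of Kdm4a, Kdm4b and Kdm4c, and 4 wild-type (WT) control mice, with 1 RNA-seq library per mouse. Both groups were C57BL6 mice whose bone marrow was sorted by flow cytometry. Cells of both groups are listed at 2 weeks after induction, which in the KO mice was induction of the deletion. The sources used here do not give how the deletion was induced, the exons removed, the cells it reached, the sort markers or the age of the mice.

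Schlafen proteins were first described in developing mouse T cells, where some of them slow growth, and the family takes its name from the German word for sleep. They share a core domain, and the family is divided into short members such as Slfn1 and Slfn2, intermediate members such as Slfn3 and Slfn4, and long members such as Slfn5, Slfn8 and Slfn9, which carry an additional helicase-like domain. Several members are induced by type I interferon, and some human and rodent Schlafen proteins bind or cut transfer RNA. Kdm4 enzymes remove methyl groups from lysine 9 of histone H3, a mark of silent chromatin, and from lysine 36.

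Total counts were between 5541504 and 14872493 in the KO libraries and between 3594315 and 6044289 in the WT libraries, with KO mouse 3 the deepest and WT mouse 2 the shallowest. The RNA was amplified before the libraries were made and no label names molecular identifiers, so counts are taken as reads and not as molecules. Levels are given as CPM, counts scaled to a common adjusted library total. Kdm4c was at 36.0 ± 10.6 CPM in KO and 115 ± 22.7 CPM in WT (SD, n = 4 each), Kdm4a at 20.3 ± 3.86 and 36.3 ± 9.56 CPM, and Kdm4b at 3.73 ± 1.79 and 10.2 ± 2.44 CPM in KO and WT, and for each of them every KO library was below every WT library. Kdm4c passed the threshold over all genes (log2 fold change -1.71, adjusted p = 2.05e-05 by edgeR), while Kdm4a and Kdm4b had adjusted p of 0.132 and 0.142 by edgeR. The 10 stem cell markers checked, among them Kit, Mecom, Hlf and Slamf1, were present throughout, with a summed level of 3990 to 4540 CPM in KO and 4870 to 5210 CPM in WT. Markers of other cells had lower sums than these but were not always absent. The 3 megakaryocyte markers had the highest of these lower sums, at 75.3 to 111 CPM in KO and 85.7 to 104 CPM in WT. Erythroid and neutrophil markers had lower sums than the megakaryocyte markers in every library. Summed T cell markers were at 1.14 to 10.4 CPM in KO and 1.37 to 4.51 CPM in WT over 5 genes, mostly from Cd4, which had 1.00 to 10.2 CPM in KO and 0.392 to 3.64 CPM in WT, while Cd3g was listed at 0 and Cd3e had 1 count in all. Of the 2 NK cell markers, Klrb1c had 4.46 to 7.69 CPM in KO and 2.80 to 9.36 CPM in WT and Ncr1 was listed at 0, and of the 2 plasmacytoid dendritic cell markers, Ccr9 had 0.566 to 4.14 CPM in KO and 1.4 to 2.26 CPM in WT and Siglech was listed at 0. No B cell marker exceeded 4 counts in a library.

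The 7 members span 263.8 kb, from position 82951349 to 83215154 of chromosome 11 (mm10). In order along the chromosome they are Slfn5 on the plus strand, Slfn9 and Slfn8 on the minus strand, and Slfn2, Slfn1, Slfn4 and Slfn3 on the plus strand, with the transcribed pseudogene Slfn10-ps between Slfn8 and Slfn2. Of the transcript sequence of Slfn8, 14.6% of all 50-base words also occur in another gene, mainly Slfn10-ps and Slfn9, against 11.5% for Slfn9, 15.6% for Slfn3, 10.8% for Slfn4, 4.27% for Slfn2, 3.37% for Slfn5 and 0.606% for Slfn1. Counts of Slfn8, Slfn9, Slfn10-ps, Slfn3 and Slfn4 are therefore uncertain to the extent that reads from these shared stretches were dropped or split. The antisense gene Slfn5os overlaps 8.84% of the exon bases of Slfn5, and no label gives the strand setting of the counting, so reads of the 2 genes cannot be told apart there. Slfn5os itself had at most 2 counts in any library.

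The promoter windows of the 3 most abundant members are shown because each holds a match to the core of the interferon-stimulated response element, the DNA element that interferon-activated transcription factors bind. The windows run from 250 bases before to 50 bases after the RefSeq start site (GRCm38.p6), are written 5′ to 3′ on the strand of the gene, and have in capitals each match, on either strand, to GAAA followed by 2 bases of any kind and GAAA.
Slfn5, chr11:82951852-82952151, plus strand: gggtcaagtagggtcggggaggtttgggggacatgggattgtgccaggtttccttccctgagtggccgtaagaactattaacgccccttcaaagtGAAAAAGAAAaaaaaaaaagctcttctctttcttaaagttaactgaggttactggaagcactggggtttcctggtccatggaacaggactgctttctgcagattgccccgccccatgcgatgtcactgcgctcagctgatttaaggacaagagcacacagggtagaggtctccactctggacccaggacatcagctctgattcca
Slfn9, chr11:82991781-82992080, minus strand: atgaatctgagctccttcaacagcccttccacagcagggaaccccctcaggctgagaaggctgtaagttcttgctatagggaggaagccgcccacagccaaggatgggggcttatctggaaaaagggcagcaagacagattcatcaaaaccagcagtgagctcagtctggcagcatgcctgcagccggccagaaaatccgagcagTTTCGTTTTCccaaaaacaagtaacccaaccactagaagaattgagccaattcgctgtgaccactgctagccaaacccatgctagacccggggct
Slfn8, chr11:83020761-83021060, minus strand: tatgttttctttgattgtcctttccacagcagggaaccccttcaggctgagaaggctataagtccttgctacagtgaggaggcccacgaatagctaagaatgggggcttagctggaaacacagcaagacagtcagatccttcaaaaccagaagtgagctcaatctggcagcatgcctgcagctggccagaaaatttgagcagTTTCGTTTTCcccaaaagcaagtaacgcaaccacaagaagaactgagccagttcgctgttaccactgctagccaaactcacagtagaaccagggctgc

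The match in Slfn5, GAAAAAGAAA, lies 155 to 146 bases before the start site and is followed by a run of A bases. In Slfn9 and Slfn8 the match is TTTCGTTTTC, which fits the reverse complement of the pattern, and lies 45 to 36 and 48 to 39 bases before the start site. The Slfn8 and Slfn9 windows are alike, with 80.7% equal bases over an alignment of 305 columns, while the Slfn5 window had 43.8% in common with that of Slfn9. A second, overlapping Slfn8 window held the same match. No match was found in the windows of Slfn1, Slfn2, Slfn3 or Slfn4, and the STAT pattern TTCNNNGAA was found in none of the 7. Over all promoter windows, 3.99% of 27025 genes held the response element core on either strand and 9.55% held TTCNNNGAA. Among the interferon-stimulated genes listed for this comparison, 22 of the 45 with a window (48.9%) held the core, as did 3 of 19 interferon signalling genes (15.8%). A match describes letters in the window and does not show that a factor binds there.

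Slfn9, a long member, had the highest RNA level of the cluster per length of exon. It was at 75.6 ± 6.21 CPM per kb in KO and 53.0 ± 10.5 CPM per kb in WT (SD, n = 4 each). Slfn8 followed with 47.2 ± 10.9 CPM per kb in KO and 32.3 ± 7.91 CPM per kb in WT, and Slfn5 with 40.1 ± 7.31 and 17.6 ± 3.28 CPM per kb in KO and WT. Below these 3 long members, Slfn2 was at 6.90 ± 2.54 CPM per kb in KO and 5.28 ± 2.29 CPM per kb in WT, and Slfn3 at 3.62 ± 0.968 and 4.53 ± 0.523 CPM per kb. Within WT, the libraries of Slfn9, Slfn8, Slfn5 and Slfn2 did not overlap in this order, although the lowest Slfn9 library at 37.8 CPM per kb was just above the highest Slfn8 library at 37.2 CPM per kb. Slfn2 and Slfn3 overlapped in WT. Within KO, the libraries of Slfn8 and Slfn5 overlapped, and Slfn8 was nevertheless the higher of the pair in each of the 4 libraries. By mean CPM, Slfn9 stood above 96.2% and Slfn5 above 89.0% of the 11498 genes tested.

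**Figure D1:**
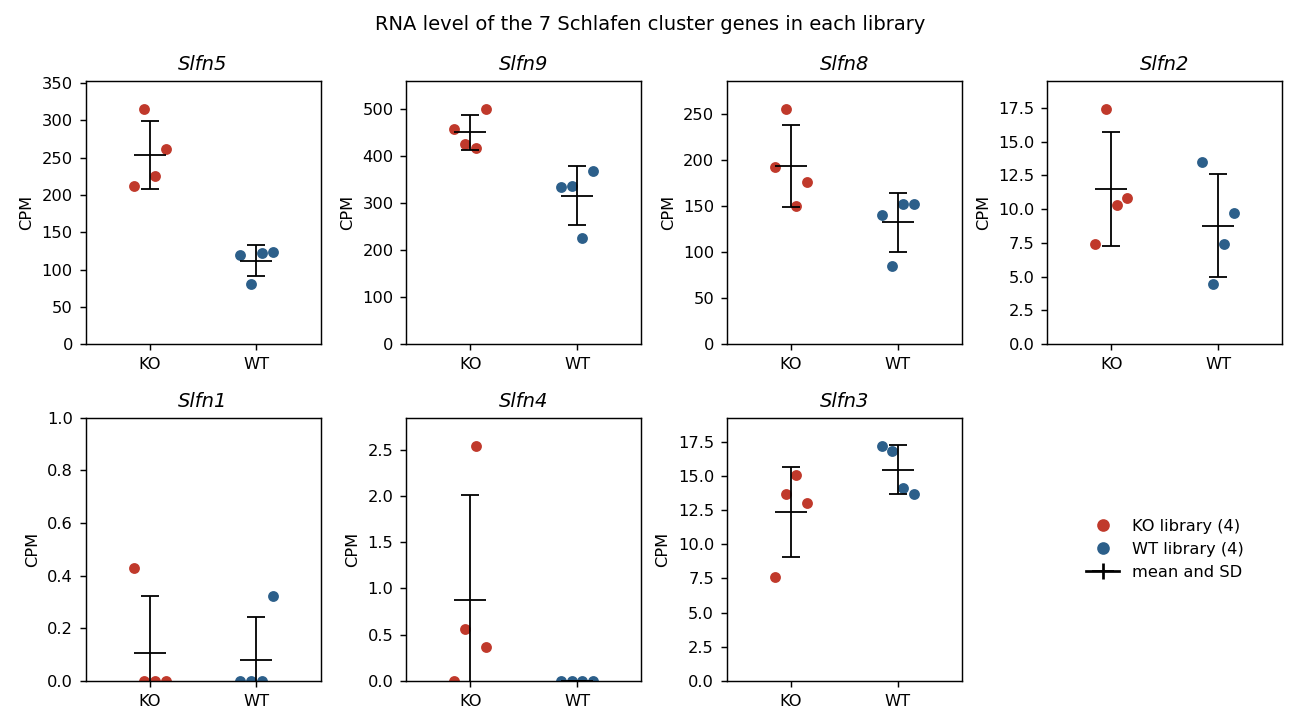
RNA level in CPM (vertical axes, starting at 0, a separate scale per gene) of each of the 7 members, in chromosome order, for 4 KO and 4 WT libraries, with mean and SD as black bars. The KO and WT points of Slfn5 and Slfn9 do not overlap, those of the other 5 members do.

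Slfn5, a long member that in human cells acts in the nucleus and restrains transcription, had 212, 315, 226 and 262 CPM in KO mice 1 to 4, against 120, 80.6, 122 and 124 CPM in WT mice 1 to 4. These rested on 1411 to 3376 counts per KO library and 288 to 767 counts per WT library. All 4 KO libraries were above all 4 WT libraries, and 3 of the 4 WT libraries lay close together with WT mouse 2 below them. The fitted fold was 2.24, a log2 fold change of 1.16 (SE 0.154), and 1.24% of all genes tested had a fold at least as large. Slfn5 was selected for its rise in this contrast, so this share is a description and no test. The spread relative to the mean was similar in both groups, with a coefficient of variation of 18.2% in KO and 18.6% in WT. In a sorted bulk sample, a change in the RNA of each cell and a change in the share of cells that carry it cannot be told apart.

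Slfn9 had 458, 427, 418 and 500 CPM in KO mice 1 to 4, against 334, 337, 225 and 369 CPM in WT mice 1 to 4. The KO libraries were all above the WT libraries and closer to each other, with a coefficient of variation of 8.22% in KO and 19.8% in WT. The log2 fold change was 0.51 (SE 0.13, a fold of 1.42), which did not pass the threshold of 0.05 over all genes (edgeR's quasi-likelihood test, adjusted p = 0.0712). Leaving out WT mouse 4 brought it to a log2 fold change of 0.59 and an adjusted p of 0.0472 by edgeR, and DESeq2 gave an adjusted p of 0.0432. Leaving out WT mouse 3 brought it to 0.38 and an adjusted p of 0.289 by edgeR, and limma voom gave an adjusted p of 0.0852. In 13 of the 16 alternative fits Slfn9 did not pass.

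Slfn8, the long member beside it, had 192, 255, 150 and 176 CPM in KO mice 1 to 4, against 140, 84.5, 152 and 152 CPM in WT mice 1 to 4. The groups overlapped, since KO mouse 3 was below WT mice 3 and 4, and the highest library was KO mouse 2 and the lowest WT mouse 2. The log2 fold change was 0.52 (SE 0.174, 95% interval 0.16 to 0.88), and edgeR gave an adjusted p of 0.221. The pseudogene Slfn10-ps, which is no member, was at 28.2 ± 8.09 CPM in KO and 21.4 ± 3.80 CPM in WT, a log2 fold change of 0.38 (SE 0.268, adjusted p = 0.642 by edgeR).

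Slfn2 is a short member that in mice is needed for T cells and monocytes to stay quiescent. It had 7.43, 17.4, 10.3 and 10.8 CPM in KO mice 1 to 4, against 13.5, 4.48, 7.44 and 9.68 CPM in WT mice 1 to 4, from 16 to 154 counts per library. The groups overlapped widely, with KO mouse 2 the highest library and WT mouse 2 the lowest. The log2 fold change was 0.29 (SE 0.378) with a 95% interval of -0.49 to 1.07 (adjusted p = 0.845 by edgeR), so either direction lies inside the interval. Slfn3, an intermediate member, had 7.57, 13.7, 15.1 and 13.0 CPM in KO mice 1 to 4, against 17.2, 16.8, 14.1 and 13.7 CPM in WT mice 1 to 4. It was the tested member with a fitted fold below 1, at a log2 fold change of -0.26 (SE 0.309, 95% interval -0.90 to 0.37, adjusted p = 0.823 by edgeR), with KO mouse 1 lowest and the rest overlapping.

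Slfn1 and Slfn4 had too few counts to be tested. Slfn4, known from macrophages and other myeloid cells stimulated with interferon or bacterial products, was listed at 0 in all 4 WT libraries. In KO it had 0, 4, 38 and 2 counts in mice 1 to 4, so 38 of the 44 counts came from KO mouse 3. The floor of 3 counts corresponds to 0.201 CPM in that library and to 0.484 to 0.839 CPM in the WT libraries, and the Slfn4 level of KO mouse 3 was 2.54 CPM. Macrophage markers had a summed level of 16.4 to 28.3 CPM in KO and 5.87 to 19.2 CPM in WT over 5 genes, with KO mouse 3 the highest. Of these, Cd68 was higher in KO (log2 fold change 1.57, adjusted p = 0.0347 by edgeR) and Mrc1 lower (-2.84, adjusted p = 0.02 by edgeR). C1qc had 0, 0, 36 and 16 counts in KO mice 1 to 4 and 0, 4, 0 and 6 in WT mice 1 to 4. C1qb had 0, 4, 7 and 0 counts in KO and 15, 0, 8 and 12 in WT. C1qa had 2 counts in KO and 1 in WT in all. The part of such cells in the Slfn4 counts was not tested. Slfn1, which slows the growth of mouse thymocytes, had 3 counts in KO mouse 1, 2 in WT mouse 4 and 0 in the other libraries, at or below the floor throughout.

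Of the 5 members tested, 1 passed the threshold, and it was Slfn5, the gene that led to the choice of the cluster; over all genes tested, 29 were higher in KO and 38 lower, 0.583% in all. Slfn5 and Slfn9 had no overlap between the groups with KO higher, as had 2.88% of all genes tested; 2.93% had no overlap with KO lower, 5.81% in all. Nothing is read from these counts, since the contrast was used in the choice.

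**Figure D2:**
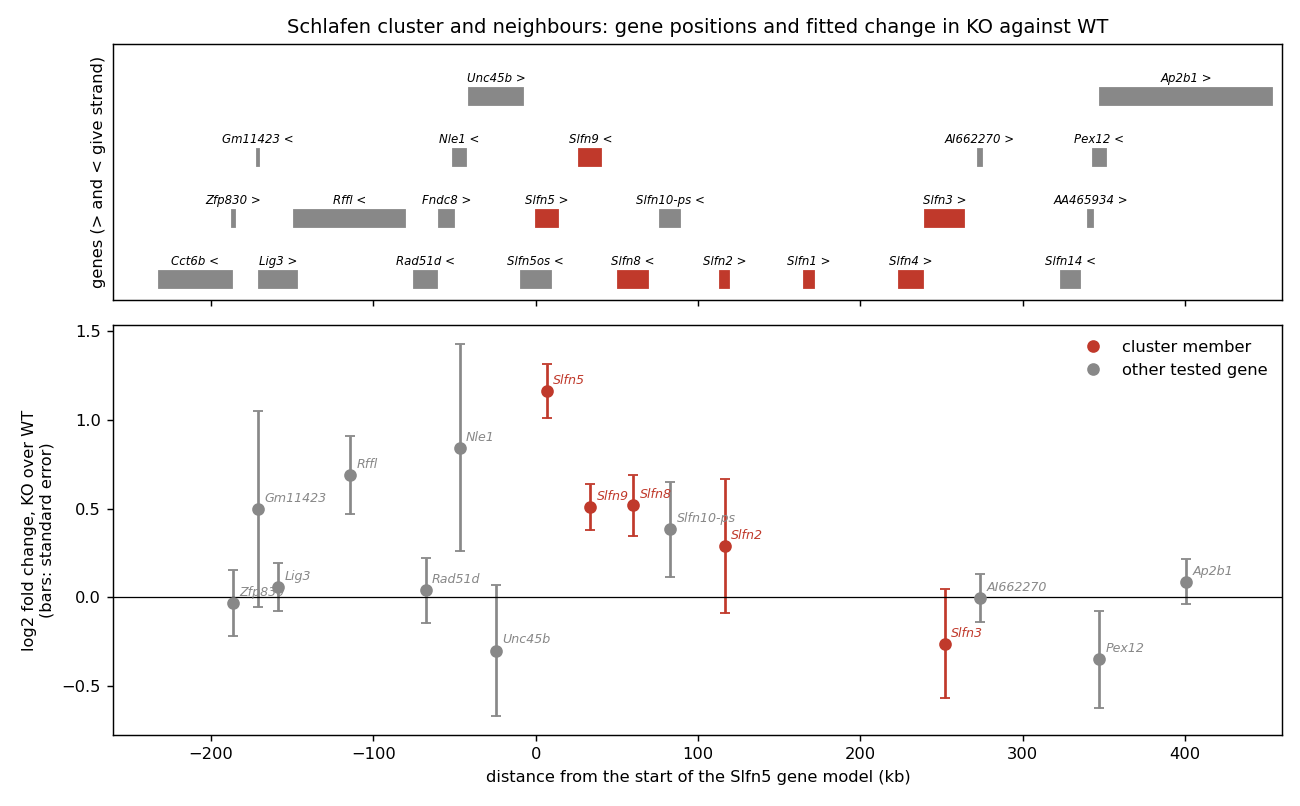
Upper panel: gene models of the cluster members (red) and of other genes in the tables (grey), placed by distance in kb from the start of Slfn5, with > and < for the plus and minus strand. Lower panel: fitted log2 fold change, KO over WT, with its standard error, for the tested genes; Slfn5 stands at 1.16, Slfn9 and Slfn8 near 0.5, Slfn3 at -0.26, and Slfn1 and Slfn4 have no value.

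Summed over the members, the length-scaled level was 164, 198, 154 and 179 CPM per kb in KO mice 1 to 4, against 122, 97.5, 103 and 129 CPM per kb in WT mice 1 to 4. This sum holds Slfn5, on which the cluster was selected. Without Slfn5 it was 131, 149, 118 and 137 CPM per kb in KO mice 1 to 4, against 103, 84.7, 83.6 and 109 CPM per kb in WT mice 1 to 4. The sum without Slfn5 did not overlap between the groups. Of single genes tested, 2.88% had no overlap with KO higher, and no such share was computed for sums of genes. The sum came mostly from Slfn9, which did not overlap by itself, and from Slfn8, which did overlap. Slfn2 and Slfn3 overlapped as well, so nothing is read from the sum about the cluster as a whole. Slfn5 contributed 20.4% to 25.1% of the sum in KO and 13.1% to 18.8% in WT, without overlap. This share is computed from the Slfn5 levels on which the cluster was selected, so it is a description and no separate result. Slfn9 contributed 36.1% to 46.9% in KO and 36.7% to 57.9% in WT, Slfn8 23.9% to 31.4% in KO and 21.2% to 36.1% in WT, and Slfn2 2.72% to 5.27% in KO and 2.76% to 6.64% in WT. Slfn3 contributed 1.35% to 2.88% in KO and 3.12% to 5.05% in WT. The sum that Slfn3 is divided by holds Slfn5, Slfn8 and Slfn9, so its share moves with theirs, and its own level overlapped between the groups.

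**Figure D3:**
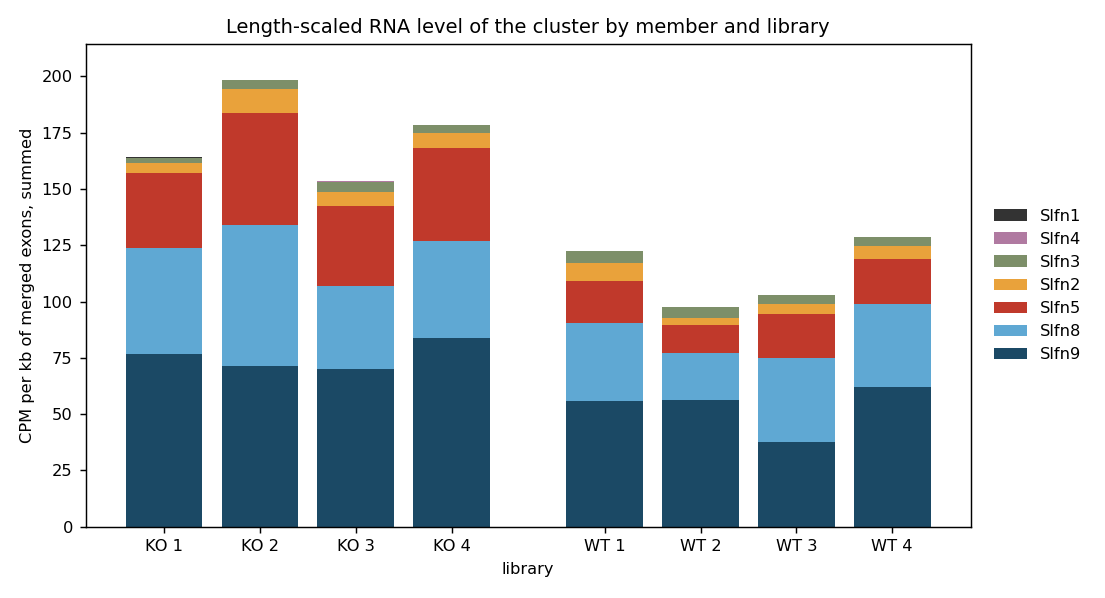
Summed length-scaled level (CPM per kb of merged exons, vertical axis from 0) in each library, 4 KO on the left and 4 WT on the right, divided by member. The red part, Slfn5, is taller in every KO library than in any WT library, and Slfn1 and Slfn4 are too low to be seen in most.

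Library by library, the members did not share 1 order. On the log2 scale, centred per gene, Slfn5, Slfn8 and Slfn2 were each highest in KO mouse 2, at 0.92, 0.71 and 0.86, and lowest in WT mouse 2, at -1.04, -0.88 and -1.03. Slfn9 instead was highest in KO mouse 4 at 0.42 and lowest in WT mouse 3 at -0.73, and Slfn3 was lowest in KO mouse 1 at -0.82. WT mouse 2 was the shallowest library. With all libraries thinned to its total of 3594315 counts, the log2 fold change was 1.15 for Slfn5, 0.57 for Slfn8, 0.53 for Slfn9, 0.09 for Slfn2 and -0.57 for Slfn3, against 0.29 for Slfn2 and -0.26 for Slfn3 without thinning.

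Likeness between genes was measured as the root mean square difference of their centred log2 levels over the 8 libraries, among 9980 genes with a mean of at least 5 CPM. The profiles most like that of Slfn5 were those of Epas1, which encodes a hypoxia-inducible factor, at 0.218, of the interferon-stimulated gene Ifi44 at 0.223 and of Il12a, a subunit of interleukin-12, at 0.223. Slfn8 ranked 36 in likeness to Slfn5 at 0.348, Slfn9 ranked 373 at 0.476, Slfn2 ranked 507 at 0.497 and Slfn3 ranked 7891 at 0.842. The ranks were lower in the other direction, since Slfn5 ranked 561 in likeness to Slfn8, 5627 to Slfn9, 1343 to Slfn2 and 9510 to Slfn3. For Slfn9 the nearest profile was that of Igtp, an interferon-induced GTPase, at 0.0673, followed by Gm16386 and Ddhd1. For Slfn8 the nearest were Fut10, Ppard and Lsm4, for Slfn2 Ppargc1a, Gm12250 and Cenpl, and for Slfn3 Nkap, Ltbp3 and Zdhhc8. These distances describe the 8 libraries and include the difference between the groups.

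Because Schlafen genes are known targets of interferon, a list of 60 other interferon-stimulated genes was set beside them. Of the 57 tested, 2 rose and 0 fell over all genes, 3.51% against a background of 0.252% for higher genes, and 54 had a fitted fold above 1, against 50.2% of all genes. An unadjusted p under 0.05 with KO higher was found for 31 of the 57, against 5.76% of all genes. The median log2 fold change was 0.35 for the list and 0.002 for all genes tested. Ifi44, an antiviral gene, was at 314 ± 32.6 CPM in KO and 134 ± 39.9 CPM in WT (SD, n = 4 each, log2 fold change 1.20, SE 0.157, edgeR adjusted p = 7.99e-05). Oasl2, of the oligoadenylate synthetase family, was at 506 ± 43.8 CPM in KO and 301 ± 53.5 CPM in WT (log2 fold change 0.75, SE 0.124, adjusted p = 0.00178 by edgeR). Rtp4 (log2 fold change 1.02), Oas3 (0.99), Oas2 (0.96), Parp14 (0.55), Igtp (0.52) and Ifitm3 (0.39) had the next smallest p and did not pass, with adjusted p from 0.0517 to 0.142 by edgeR. Without WT mouse 4 the number past the threshold was 6, and without KO mouse 3 it was 4. In the median centred level of the list, KO mouse 3 stood at 0.05, below WT mouse 4 at 0.07, while the other KO libraries were between 0.23 and 0.33 and the other WT libraries between -0.35 and -0.23. Slfn5 was at 0.44 in KO mouse 3 and -0.42 in WT mouse 4. The cluster was selected on the KO and WT levels of Slfn5, so no contrast with the list is drawn from this.

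Among the mediators of interferon signalling, 1 of 21 tested genes rose and 0 fell, against 0.252% of all genes higher, and 12 (57.1%) had a fold above 1, against 50.2% of all genes. Their log2 fold changes had a median of 0.02. The gene past the threshold was Stat2, a transcription factor of the type I response, at 106 ± 12.9 CPM in KO and 60.9 ± 16.8 CPM in WT (SD, n = 4 each, log2 fold change 0.78, adjusted p = 0.0492 by edgeR). It stayed past the threshold without WT mouse 4 or without KO mouse 3, and no gene of the list passed (0) when any other single library was left out. Irf7, the transcription factor that amplifies interferon production, was at 16.9 ± 3.54 CPM in KO and 5.80 ± 1.75 CPM in WT, with a log2 fold change of 1.45 (adjusted p = 0.0672 by edgeR). Usp18, an inhibitor of the receptor, had a log2 fold change of 0.97, with an adjusted p of 0.247 by edgeR, and the receptor genes Ifnar1 and Ifnar2 had 0.03 and 0.13. The lower summed level of stem cell markers in KO, given above, differed between the same groups as these lists and Slfn5, and its part in them was not tested.

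**Figure D4:**
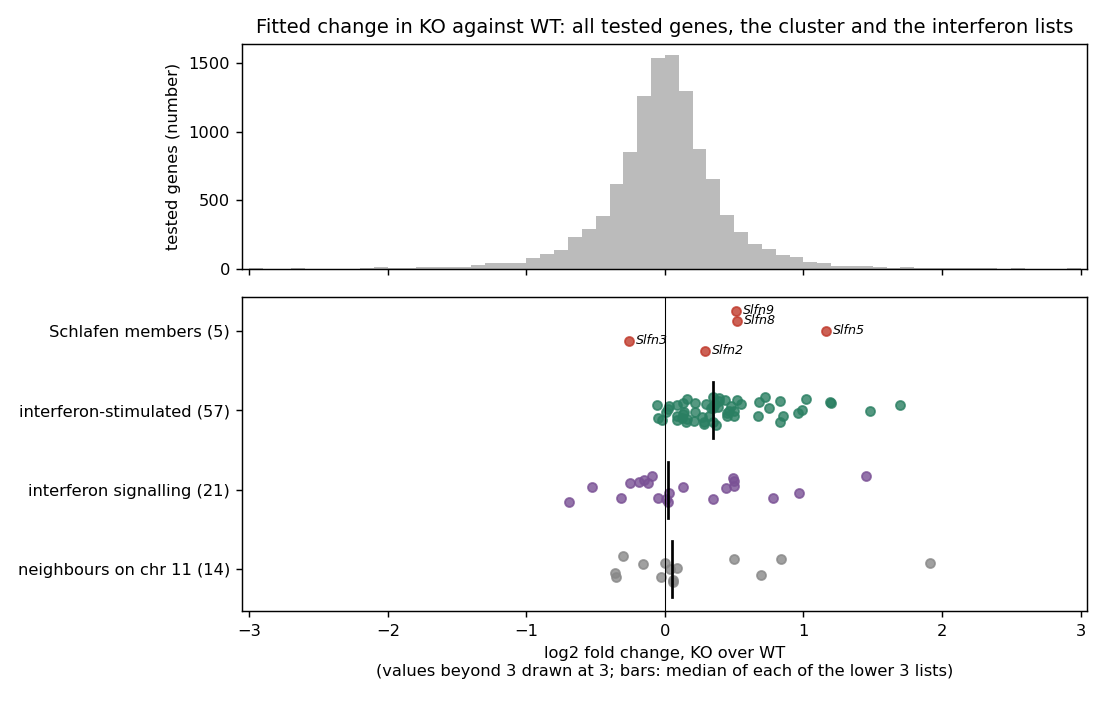
Upper panel: number of tested genes by fitted log2 fold change, KO over WT. Lower panel: the same quantity for each tested member, for 57 interferon-stimulated genes, 21 interferon signalling genes and 14 neighbouring genes, with the median of each of the lower 3 lists as a bar; the interferon-stimulated list lies mostly above 0, the other 2 lists on both sides of it.

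The genes around the cluster were compared in the same way. Within 500 kb on either side, 31 other genes were in the tables and 14 were tested. None (0) of the 14 passed the threshold by edgeR, and DESeq2 and limma voom called 0 as well. The median log2 fold change was 0.05. An unadjusted p under 0.05 by edgeR with KO higher was found for 2 of the 14, against 5.76% of all genes. One was Rffl, given below. The other was 1700020L24Rik, with a log2 fold change of 1.91 (SE 0.849, adjusted p = 0.383 by edgeR). It had 1 to 39 counts per library. The nearest tested gene to the left, Unc45b, a myosin chaperone gene, was at 9.40 ± 5.01 CPM in KO and 12.2 ± 1.96 CPM in WT (log2 fold change -0.30, SE 0.37, adjusted p = 0.833 by edgeR). The nearest to the right, the transcript AI662270, was at 141 ± 11.8 CPM in KO and 141 ± 4.36 CPM in WT (SD, n = 4 each), with a log2 fold change of -0.00 (SE 0.133, adjusted p = 0.995 by edgeR). Rffl, a ubiquitin ligase gene to the left, was at 74.2 ± 24.4 CPM in KO and 47.4 ± 6.49 CPM in WT, with a log2 fold change of 0.69 that did not pass (adjusted p = 0.185 by edgeR). Of its exon bases, 30.8% overlap Lig3 on the opposite strand. Slfn14, a long Schlafen gene to the right that is known from platelets and red cell precursors, had 0, 0, 1 and 0 counts in KO mice 1 to 4 and 4, 0, 6 and 13 counts in WT mice 1 to 4. Slfnl1, a related gene on another chromosome, had 1, 0, 47 and 10 counts in KO mice 1 to 4 and 0, 0, 0 and 2 in WT mice 1 to 4. Neither was tested, and both had 1 or more KO libraries at or under the floor.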

How the data were processed

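RNA-seq libraries of 4 KO and 4 WT mice were compared, grouped by their titles. The deposited values are raw read counts per gene symbol. Reads were mapped by the authors with STAR (2.4.0d-2) and counted with htseq-count (0.6.1galaxy1), per the labels' protocols, and per the submitters' processing notes the build was mm10. The sources used here give neither the annotation nor the strand setting. No row of the tables was without a gene.

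Counts were filtered by edgeR's filterByExpr (minimum count 10, minimum total 15), which left 11498 genes, scaled by TMM (factors 0.974 to 1.03) and tested with edgeR 4.0.16 in R 4.3.3, by the quasi-likelihood method with robust dispersion and adjusted deviances, KO against WT, two-sided. P-values were adjusted by Benjamini-Hochberg across the genes tested, and 0.05 was the threshold. The SE is the log2 fold change divided by the square root of F. The CPM floor is 3 counts, which covers counting error only. Levels between genes were divided by merged exon length in GENCODE M21, and 23061 of 24222 symbols matched it by name. Centred log2 CPM used a prior count of 2. Promoters are from RefSeq (GRCm38.p6), and all 7 members matched. The procedure was tested on simulated counts. No pair of libraries of a group agreed within sampling noise (smallest chi-square per degree of freedom 10.9). The titles name a separate mouse for each library, so p-values measure the spread between mice.

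The members and lists were chosen with earlier results of these data known. Named are the members and their relatives, the targeted genes, neighbours past the threshold and the nearest tested on either side. The rule also names the 8 interferon-stimulated and 4 signalling genes with the smallest p, and the 3 genes most like each tested member. Rffl, 1700020L24Rik, Ifnar1, Ifnar2 and single markers were named after their values were seen. One gene that this rule names is not reported here. Alternatives were other scalings and filters, DESeq2 1.42.0, limma voom (limma 3.58.1), a replicate block, thinned counts and omission of each library.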

Additional observations from a re-analysis of the deposited data

Results flagged for a closer look

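In the genes named, each of 80 groups of 4 libraries was checked for a library whose gap to its nearest neighbour exceeded Dixon's 95% critical value; chance gives such a gap in about 1 in 20 groups. Among the members, WT mouse 2 stood apart in Slfn5, with 80.6 CPM against 120 CPM in the next WT library. Without WT mouse 2 the log2 fold change of Slfn5 was 1.05. Slfn1 had 0.429 CPM in KO mouse 1 and 0.323 CPM in WT mouse 4, from 3 and 2 counts, with the other libraries at 0. Among the other Schlafen genes, Slfn14 had 0.0669 CPM in KO mouse 3, from 1 count, and Slfnl1 had 0.323 CPM in WT mouse 4, from 2 counts. Of the interferon-stimulated genes, Igtp was at 121 CPM in KO mouse 3, against 133 CPM in the next KO library. Ifitm3 was at 662 CPM in KO mouse 1, against 562 CPM in the next KO library, and at 345 CPM in WT mouse 2, against 465 CPM in the next WT library.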

How the results depend on the processing

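Over the 16 alternatives the log2 fold change of Slfn5 ran from 1.04 to 1.24, with the same range when 1 library was left out. Slfn8 ran from 0.35 to 0.64, Slfn2 from 0.05 to 0.57 and Slfn3 from -0.57 to -0.11, and Slfn8, Slfn2 and Slfn3 did not pass in any alternative. Slfn9 passed in 3, with a log2 fold change of 0.52 without the filter and 0.51 by DESeq2, and leaving out 1 library gave 0.38 to 0.59, past the threshold without WT mouse 4; its adjusted p by edgeR, DESeq2 or voom was 0.00759 to 0.289. The members past the threshold were then 2 without the filter and 2 by DESeq2, and 1 to 2 with 1 library left out. Genes past the threshold over the whole table were 67, against 199 without the filter, 154 by DESeq2 and 35 to 70 with 1 library left out, with 35 without WT mouse 3, 44 without WT mouse 2 and 44 without KO mouse 4. Interferon-stimulated genes past it were 2, against 8 without the filter, 8 by DESeq2 and 2 to 6 with 1 library left out. Interferon signalling genes were 1, against 3 without the filter, 2 by DESeq2, 2 with thinned counts, 0 with DESeq2 size factors, 0 without TMM, 0 by voom and 0 to 2 with 1 library left out. Neighbouring genes were 0, against 1 (Rffl) without the filter and 0 to 0 with 1 library left out. The causes were not tested. Libraries with the same mouse number did not deviate together (correlations of deviations -0.0917 to -0.0089), and the number was not used as a pairing in the main fit. Such correlations cannot show whether mice of the same number were paired in the experiment. With the replicate block 57 genes passed in all, 0 of the interferon signalling list, and the log2 fold change of Slfn5 was 1.16.

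Slfn1 was at or under the floor of 3 counts in every library. Slfn4, Slfn14 and Slfnl1 were at or under it in most libraries and above it in a few, and were not tested. The intervals of Slfn2 and Slfn3 span both directions; the parts of depth and of the spread between mice in their width were not tested.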
